A study of Mus musculus with 6 samples.

Results

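NRF2, encoded by Nfe2l2, and 9 genes tied to it were followed through fibroblasts with and without FHL2: Keap1, Gclc, Gclm, Slc7a11, Txnrd1, Srxn1, Hmox1, Gsta4 and Gstm1. They were chosen by name, as the transcription factor, its inhibitor and known antioxidant targets, and make up 10 of the 18193 genes measured. The choice was made with earlier results of these data known. Every member was read by at least 1 probe set that carried its symbol alone; the probe set with the highest mean over all clones led, and the others served as a check. RNA came from 6 spontaneously immortalized clones of embryonic fibroblasts from mice, with 1 Affymetrix array per clone. The 3 knockout clones (E, H and J) were derived from FHL2-/- mice and the 3 wild type clones (E, F and I) from WT mice. The labels give no treatment, and leave unsaid whether each clone had its own embryo, so the p-values rest on clone-to-clone spread alone.

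NRF2 is a transcription factor that is normally held in the cytoplasm by KEAP1 and passed to a cullin ubiquitin ligase for degradation. Oxidants and electrophiles modify KEAP1, NRF2 then accumulates, pairs with a small MAF protein and binds antioxidant response elements in its target genes. Those genes supply glutathione and thioredoxin, the main thiol reductants of the cell, and the enzymes that conjugate or break down reactive compounds. Much of the control of NRF2 acts on the protein, which these arrays did not measure.

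Sequences in front of the members are shown here because the genes share a regulator whose binding letters can be searched for. RefSeq promoter windows of assembly GRCm38.p6, from 250 bases before to 50 bases after a transcription start, were found for 7 of the 10 members: Nfe2l2, Keap1, Gclm, Txnrd1, Srxn1, Slc7a11 and Gstm1. Gclc, Hmox1 and Gsta4 had no entry. Both strands were searched for the antioxidant response element core (TGACNNNGC or TGAGNNNGC), for the AP-1 element (TGANTCA) and for an amino acid response element (TGATGNAA). AP-1 is a transcription factor to which FHL2 is known to bind. An AP-1 element with C or G at its free base and followed by GC also matches the antioxidant core. The antioxidant core stood in 5 of the members' 10 windows, against 27.8% of all 32841 windows searched, so it is a common sequence. It was found for Nfe2l2, Gclm, Txnrd1, Srxn1 and Slc7a11, and not in the windows of Keap1 or Gstm1. The stretches around the matches that lie before the start are printed 5′ to 3′ on the strand of the gene, with the matching letters in capitals.

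The Nfe2l2 stretch (chr2:75704870-75704913, minus strand) holds 1 antioxidant core on the strand of the gene, 240 bases before the start.
Nfe2l2: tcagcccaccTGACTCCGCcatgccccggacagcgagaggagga

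The Gclm stretch (chr3:122245398-122245456, plus strand) holds 1 antioxidant core on the opposite strand, 134 bases before the start.
Gclm: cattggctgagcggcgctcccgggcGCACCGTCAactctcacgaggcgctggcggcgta

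The Txnrd1 stretch (chr10:82859089-82859147, plus strand) belongs to the second of 3 annotated starts and holds 1 antioxidant core on the opposite strand, 92 bases before that start.
Txnrd1: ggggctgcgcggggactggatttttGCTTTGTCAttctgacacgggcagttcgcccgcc

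The Srxn1 stretch (chr2:152105341-152105512, plus strand) holds antioxidant cores 158 and 45 bases before the start and AP-1 elements 102 and 45 bases before it. The match 45 bases before the start fits both patterns. AP-1 elements occurred in 7.81% of all windows.
Srxn1: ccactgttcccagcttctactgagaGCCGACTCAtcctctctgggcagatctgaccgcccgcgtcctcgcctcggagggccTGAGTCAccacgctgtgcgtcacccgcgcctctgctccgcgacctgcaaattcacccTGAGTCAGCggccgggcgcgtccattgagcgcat

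The Slc7a11 stretch (chr3:50443628-50443735, minus strand) holds 1 antioxidant core 97 bases before the start and 2 amino acid response elements, 66 and 47 bases before it and on opposite strands. The amino acid element occurred in 3.97% of all windows.
Slc7a11: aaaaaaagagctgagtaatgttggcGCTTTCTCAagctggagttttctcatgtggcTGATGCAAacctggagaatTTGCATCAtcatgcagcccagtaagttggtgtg

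**Figure D1:**
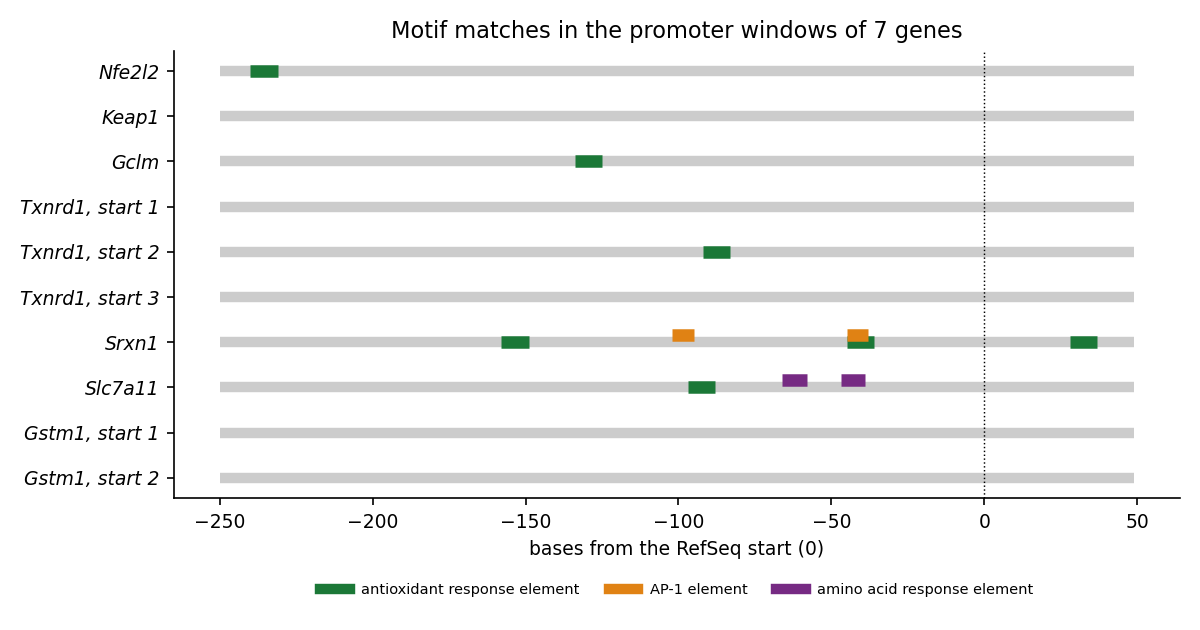
Matches to 3 motifs along the 10 promoter windows of 7 genes; the horizontal axis is the distance in bases from the RefSeq start, at 0, and each grey bar is a window. Srxn1 holds 3 antioxidant cores, 1 of them after the start, and 2 AP-1 elements, while the windows of Keap1 and Gstm1 hold no match.

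Levels below are log2 intensities after RMA, and differences are knockout minus wild type on that scale with the standard error (SE) of a limma fit over all genes (n = 3 clones per genotype). A gene is said to rise or fall where its p, adjusted by Benjamini-Hochberg over all 18193 genes, lay under 0.05. Fhl2 itself read 6.01, 6.44 and 6.57 in the E, H and J knockout clones and 9.88, 8.57 and 9.64 in the E, F and I wild type clones, a fall of 8.13-fold (adjusted p = 0.00400); the sources used here do not place its probe set inside or outside the deleted part. Among knockout clones H was the least alike, with correlations over genes of 0.964 and 0.968 with clones E and J against 0.991 between those. Array medians differed by genotype (4.44 to 4.46 for wild type arrays, 4.51 to 4.54 for knockout arrays), as did the 3′ to 5′ difference of the Gapdh control (-0.041 to 0.052 for wild type, -0.119 to -0.045 for knockout). That of the actin control overlapped between genotypes (0.093 to 0.133 for wild type, 0.103 to 0.235 for knockout). The part of array medians and of these controls in the results was not tested. Fibroblast markers were high in every clone (8 of 8, Col1a1 at 13.04 to 13.56), although 2 of them, Thy1 and Pdgfrb, fell in knockout clones. Of 14 markers of other cell types, Epcam rose (7.24 to 7.84 over all clones), Tubb3 fell (3.90 to 8.94), and 12 did not pass. Among those, Cdh1, Ptprc, Pecam1 and Myod1 read 2.57 to 3.65. Krt8 read above that range in every clone and Cdh5 in knockout clone J only. Cd68 read above it in knockout clone H and in wild type clones F and I. Cd3e (5.72 to 5.99), Sox10 (5.24 to 5.49), Des (4.96 to 6.32) and Kdr (4.81 to 6.99, highest in knockout clone H) read higher still. Krt18 was lower in all knockout clones (3.14 to 3.22) than in wild type clones (3.37 to 5.05). The part of other cell types in the results was not tested.

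The members split in the knockout clones. The genes that make glutathione and run the thioredoxin system were lower: both subunits of glutamate-cysteine ligase, thioredoxin reductase and sulfiredoxin fell by 1.71-fold to 2.42-fold. The transferase Gsta4 rose by 2.78-fold. Nfe2l2, Keap1, Slc7a11, Hmox1 and Gstm1 did not pass. In all, 4 members fell and 1 rose, while 10.0% of all genes fell and 9.04% rose (19.0% together). The ranges of the genotypes lay apart in 5 members downward and 1 upward; over all genes this held for 18.2% downward and 20.7% upward. The median difference over the members was -0.49, beside 0.04 over all genes. Since the members were chosen with earlier results of these data known, these comparisons with all genes are description only. When array medians were subtracted 4 members fell and 0 rose, since Gsta4 then missed the threshold. Over the fits that left out 1 clone, 2 to 6 members passed; the count was 2 without knockout clone E or J, 3 without wild type clone E, F or I, and 6 without knockout clone H. With array weights 7 passed, Slc7a11 and Hmox1 being added.

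**Figure D2:**
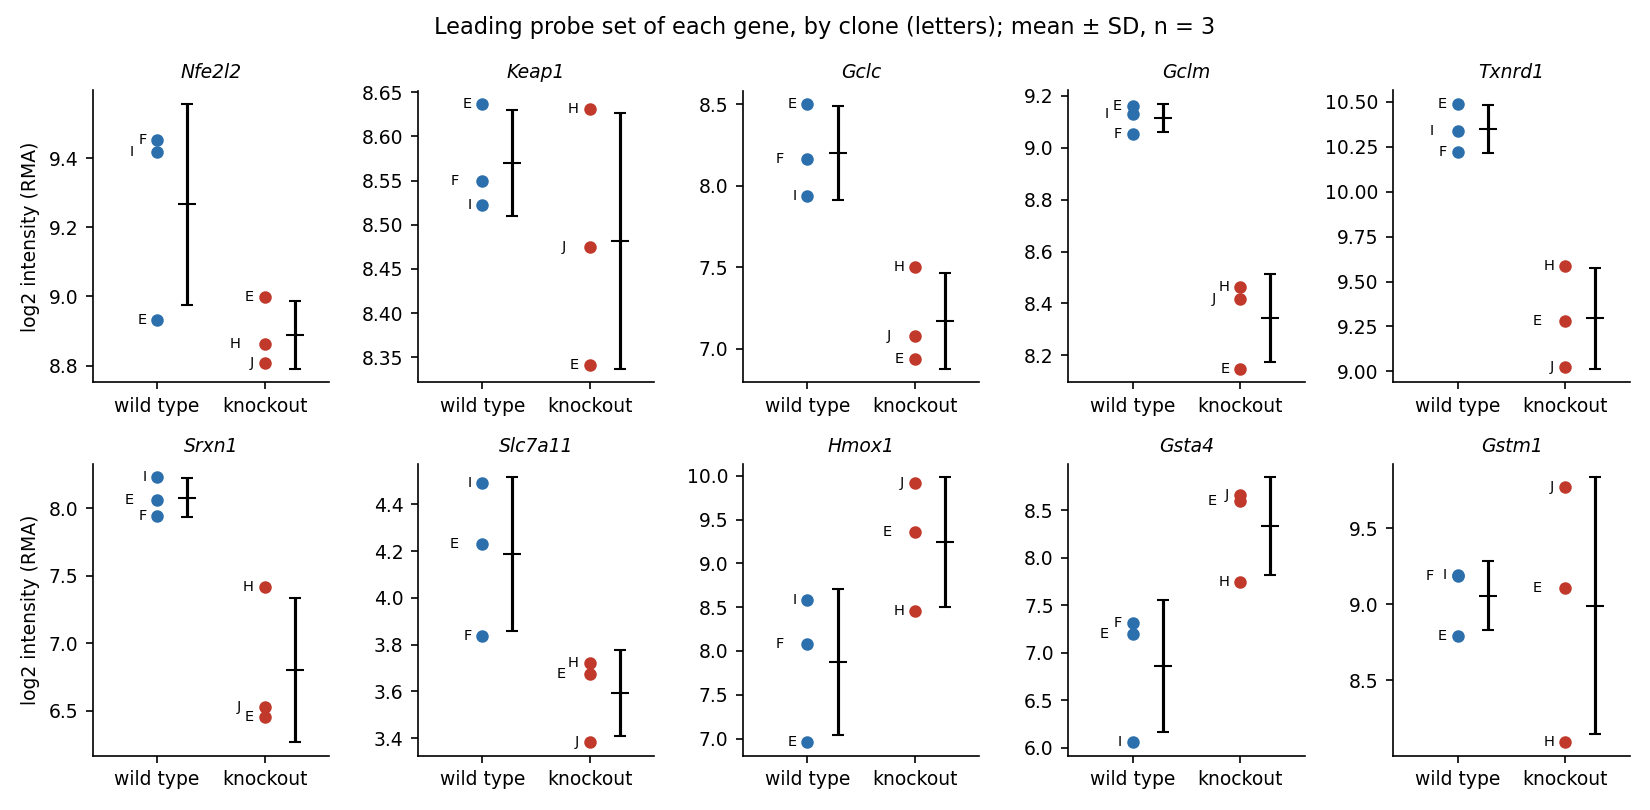
Log2 intensity of the leading probe set of each member in the 6 clones (points with clone letters; bars are the mean ± SD of 3 clones; each panel has its own axis). Gclc, Gclm, Txnrd1, Srxn1 and Slc7a11 have all knockout clones below all wild type clones, Gsta4 has them above, and the clones overlap in the other 4 genes.

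**Figure D3:**
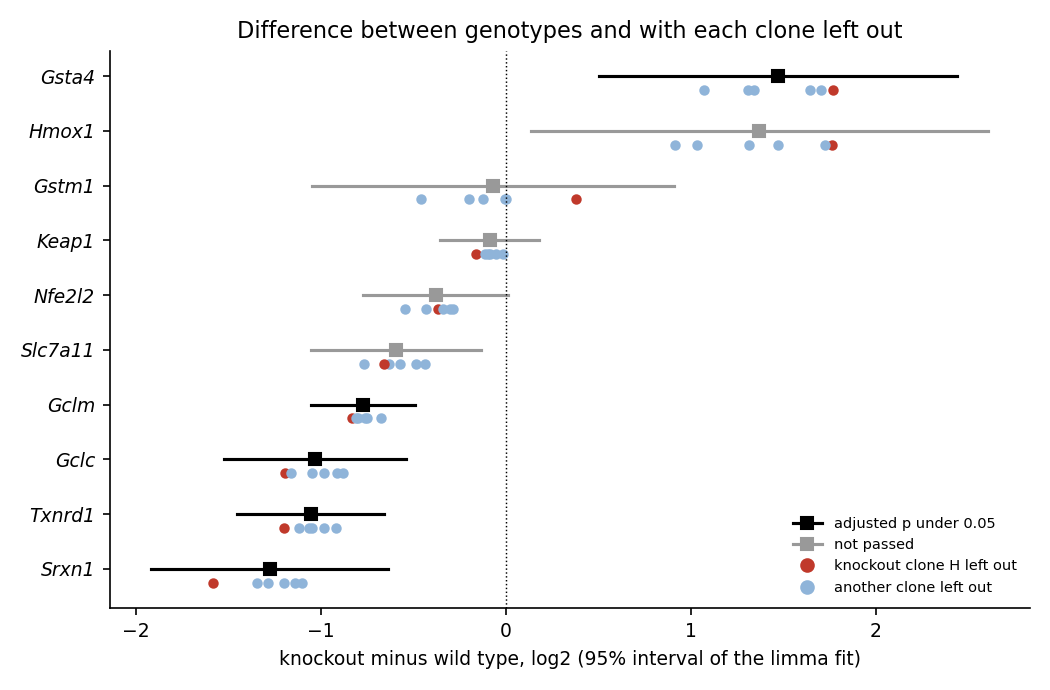
Difference between genotypes on the log2 scale (squares, with the 95% interval of the fit) and the same difference with each clone left out (circles, red for knockout clone H). The falls run from -0.77 for Gclm to -1.28 for Srxn1, and leaving out clone H takes Gstm1 from -0.07 to 0.38.

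Neither the transcription factor nor its inhibitor passed the test. Nfe2l2 read 8.998, 8.86 and 8.81 in the E, H and J knockout clones and 8.93, 9.45 and 9.42 in the E, F and I wild type clones. The groups overlapped because wild type clone E lay below knockout clone E. The difference was -0.38 (SE 0.16, adjusted p = 0.164), with a 95% interval from -0.77 to 0.01. Without wild type clone E it was -0.55 and passed narrowly (adjusted p = 0.0491); that array's values carry 9 decimals where all others carry 3, and the sources used here do not say whether it was processed separately. A second, dimmer Nfe2l2 probe set differed by 0.08 (SE 0.26, adjusted p = 0.863).

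Keap1, the adaptor that delivers NRF2 to its ligase, read 8.34, 8.63 and 8.47 in the E, H and J knockout clones. It read 8.64, 8.55 and 8.52 in the E, F and I wild type clones. Clones E and J lay below all wild type clones, while clone H lay inside the wild type range, next to its highest value. The difference was -0.09 (SE 0.11, adjusted p = 0.639; 95% interval -0.35 to 0.18), and a second probe set gave 0.12 (SE 0.13, adjusted p = 0.613).

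Over the 6 clones, the expressed genes whose levels followed that of Nfe2l2 most closely were Atg13 (Pearson r = 0.989), Kmt2a (0.988) and Golgb1 (0.987). These were the highest of 9096 genes at or above the median level, and the coefficients describe 6 arrays that share the genotype contrast.

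Both subunits of glutamate-cysteine ligase, which catalyses the rate-limiting step of glutathione synthesis, were lower in every knockout clone. Gclc, the catalytic subunit, read 6.94, 7.50 and 7.08 in the E, H and J knockout clones and 8.50, 8.17 and 7.94 in the E, F and I wild type clones. The groups did not overlap, and clone H lay nearest to wild type. Gclc fell by 1.03 (SE 0.20, adjusted p = 0.0188), or 2.04-fold, and its second probe set by 0.92 (SE 0.24, adjusted p = 0.0484). Leaving out knockout E (adjusted p = 0.0592) or J (0.0691), or wild type E (0.0628) or F (0.0603), ended the call, with differences of -0.88 to -1.05.

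Gclm, the modifier subunit, had the smallest spread of the members among wild type clones (SD 0.055). It read 9.16, 9.05 and 9.13 in the E, F and I wild type clones and 8.15, 8.46 and 8.42 in the E, H and J knockout clones. The lowest wild type clone was well clear of the highest knockout clone. Gclm fell by 0.77 (SE 0.12, adjusted p = 0.00834) and passed under all 15 alternatives. Its second probe set differed by -0.33 (SE 0.16, adjusted p = 0.226), with overlapping groups.

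Slc7a11, the antiporter that imports cystine for glutathione synthesis, was read at low intensities. It stood at 3.67, 3.72 and 3.38 in the E, H and J knockout clones and at 4.23, 3.84 and 4.49 in the E, F and I wild type clones. All knockout clones lay below all wild type clones, with little room between clone H and wild type clone F. The difference of -0.59 (SE 0.19) did not pass (adjusted p = 0.0796). It passed without wild type clone F (-0.77, adjusted p = 0.0466), with array weights (-0.65, adjusted p = 0.0450) and with the mean of both probe sets (-0.72, adjusted p = 0.0212). The second probe set, read lower still, had groups apart as well, at 3.24 to 3.67 for wild type and 2.54 to 2.63 for knockout (-0.84, SE 0.13, adjusted p = 0.0102). At such levels the size of a difference is not exact.

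The thioredoxin genes among the members fell. Txnrd1 encodes the cytosolic thioredoxin reductase, which uses NADPH to recharge thioredoxin. It read 9.28, 9.58 and 9.02 in the E, H and J knockout clones and 10.49, 10.22 and 10.34 in the E, F and I wild type clones. The groups did not overlap. Txnrd1 fell by 1.06 (SE 0.17, adjusted p = 0.00900), or 2.08-fold, and passed in each fit that left out 1 clone. Its other probe sets differed by -0.996 and -0.65 (adjusted p = 0.0553 and 0.0188, SE 0.28 and 0.13). The leading and second probe sets end in _a_at, which marks probes shared by transcripts of 1 gene; the third ends in _x_at, which marks possible cross-hybridization.

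Srxn1 encodes sulfiredoxin, which restores over-oxidised peroxiredoxins. It read 6.45, 7.42 and 6.53 in the E, H and J knockout clones and 8.06, 7.94 and 8.23 in the E, F and I wild type clones. Clones E and J were far below wild type and clone H lay between, without overlap. Srxn1 fell by 1.28 (SE 0.27, adjusted p = 0.0217), or 2.42-fold, the largest fall among the members' leading probe sets. Its leading probe set ends in _s_at, which marks possible cross-hybridization. Leaving out any single clone other than knockout clone H lost the call (adjusted p = 0.0597 to 0.0783), while the difference was -1.58 without clone H. Of its other probe sets, 1 fell by 0.95 (SE 0.22, adjusted p = 0.0342), 1 differed by -0.89 (SE 0.27, adjusted p = 0.0702) and 1 by 0.15 (SE 0.12, adjusted p = 0.443). The mean of all 4 probe sets gave -0.74 (adjusted p = 0.0331), where the same mean gave -0.97 for Gclc and -0.90 for Txnrd1. Without probe sets ending in _x_at or _s_at, Srxn1 differed by -0.95, Gclc by -1.03 and Txnrd1 by -1.06.

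**Figure D4:**
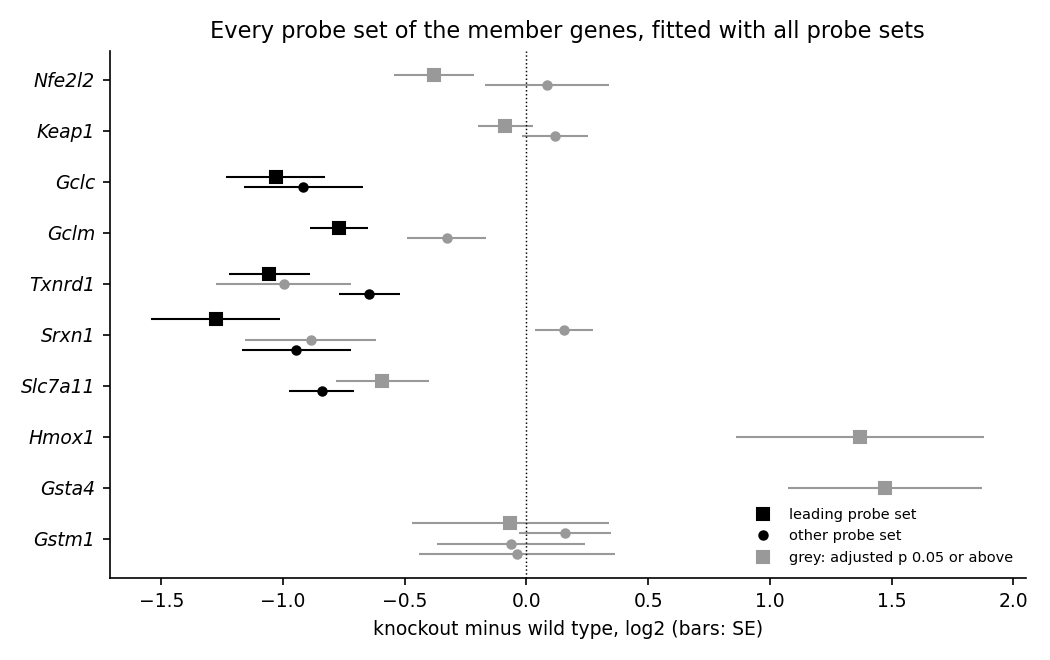
Difference between genotypes for all 23 probe sets of the 10 members (squares lead, circles are the others; bars are SE; black marks an adjusted p under 0.05 over all probe sets). The probe sets that passed belong to Gclc, Gclm, Txnrd1, Srxn1 and Slc7a11, all below 0, and 1 Srxn1 probe set lies above 0 at 0.15.

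Over all 34945 probe sets with 1 symbol, 16.8% passed. Of the members' 23 probe sets, 8 fell and 0 rose, with Gsta4 just outside the threshold in that fit (adjusted p = 0.0513). Among the 13 that did not lead, 4 fell and 9 lay below 0. Probe sets of a gene share its RNA and are not replicates.

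The members that break down haem or conjugate reactive compounds did not share the fall. Gsta4 encodes a glutathione transferase with high activity towards aldehydes from lipid peroxidation. It read 8.59, 7.74 and 8.66 in the E, H and J knockout clones and 7.20, 7.32 and 6.06 in the E, F and I wild type clones. The groups did not overlap, with clone H closest to wild type. Gsta4 rose by 1.47 (SE 0.40, adjusted p = 0.0491). The call was lost when any clone other than knockout clone H was left out (adjusted p = 0.0723 to 0.150), and the adjusted p ran from 0.0159 to 0.150 over all alternatives.

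Hmox1, the inducible haem oxygenase, varied widely within both genotypes. It read 9.36, 8.46 and 9.92 in the E, H and J knockout clones and 6.96, 8.08 and 8.59 in the E, F and I wild type clones. Clone H lay below wild type clone I, so the groups overlapped. The difference of 1.37 (SE 0.51) did not pass (adjusted p = 0.118). It passed without knockout clone H (1.77, adjusted p = 0.0348) and with array weights, which gave clone H the lowest weight (1.64, adjusted p = 0.0400), and was 0.91 without wild type clone E (adjusted p = 0.282).

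Gstm1, a transferase of the mu class, read 9.11, 8.09 and 9.77 in the E, H and J knockout clones and 8.79, 9.19 and 9.19 in the E, F and I wild type clones. The knockout clones held both the highest and the lowest value. The difference was -0.07 (SE 0.41, adjusted p = 0.930), and its 95% interval, from -1.05 to 0.91, leaves room for a change in either direction. It was 0.38 without knockout clone H and -0.46 without knockout clone J. Mu-class genes are close copies of each other, and the leading probe set is marked for possible cross-hybridization; the other 3 probe sets differed by -0.06 to 0.16, with none passing.

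Clone by clone, most members differed least from wild type in knockout clone H. In 8 of the 10 members, among them all 5 that passed, clone H was the knockout clone closest to the wild type mean. For Srxn1, clone H lay 0.66 below the wild type mean, clone E 1.62 and clone J 1.55 below it. For Gsta4, clone H lay 0.88 above that mean, clone E 1.74 and clone J 1.801 above it. Nfe2l2 and Gstm1 were the exceptions, with clone E closest for both. Over all genes clone H was the closest in 42.6%, and in 51.8% of those that passed; whether the members differ from other genes in this was not tested.

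Other genes of these pathways, taken from 7 lists, showed changes in both directions. The lists, like the members, were chosen with earlier results of these data known, so their shares are description only. Of 88 listed genes 81 were measured, of which 11 rose, 12 fell and 58 did not pass, and their median difference was -0.07; the 23 that passed make up 28.4% of them, against 19.0% of all genes. By list the share ran from 16.7% for the regulators and 17.6% for glutathione metabolism, both below that background, to 57.1% of the 7 genes for NADPH supply; these lists are short and nothing particular to them is read from the shares. With array medians subtracted the counts were 9 and 16. Without knockout clone H the counts were 14 and 17, and without wild type clone E 10 and 4.

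Among 12 regulators and partners of NRF2, 2 fell and 0 rose. Bach2, a repressor that pairs with small MAF proteins, read 4.31, 5.33 and 3.88 in the E, H and J knockout clones and 7.68, 7.57 and 7.42 in the E, F and I wild type clones. It fell by 3.05 (SE 0.35, adjusted p = 0.00391); the mean of its probe sets gave -1.97. Maff, a small MAF protein, read 5.28, 6.06 and 5.48 against 8.17, 8.16 and 7.74, and fell by 2.41 (SE 0.23, adjusted p = 0.00242). Both were clearly apart by genotype. The other small MAF genes Mafg and Mafk differed by -0.02 and -0.22 (adjusted p = 0.954 and 0.375, SE 0.20 and 0.15), Bach1 by -0.27 and the KEAP1 ligase partner Cul3 by -0.09 (adjusted p = 0.489 and 0.729, SE 0.24 and 0.15); these 4 were named for their roles after their values were seen.

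In the thioredoxin and peroxiredoxin list, 2 of 12 measured genes fell and 2 rose. Txn1, the cytosolic thioredoxin that Txnrd1 recharges, read 11.06, 11.62 and 10.98 in the E, H and J knockout clones and 12.15, 11.99 and 12.02 in the E, F and I wild type clones. It fell by 0.83 (SE 0.19, adjusted p = 0.0268), and the mean of its probe sets gave -0.55. Leaving out any clone but knockout H ended this call (adjusted p = 0.0734 to 0.0977). Txnl1, a thioredoxin-like protein, fell by 1.11 (SE 0.16, adjusted p = 0.00687), and the mean of its probe sets gave -0.46. Prdx3, the mitochondrial peroxiredoxin, rose by 0.77 (SE 0.13, adjusted p = 0.0116) and Sesn3, a sestrin, by 0.87 (SE 0.13, adjusted p = 0.00726).

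NADPH supply, on which both reductases depend, also held falls and a rise: 3 of 7 measured genes fell and 1 rose. G6pdx, also on the list, was not measured. Pgd, an enzyme of the oxidative pentose phosphate pathway, read 8.48, 8.42 and 8.37 in the E, H and J knockout clones and 9.80, 9.60 and 9.38 in the E, F and I wild type clones. It fell by 1.17 (SE 0.13, adjusted p = 0.00353). Tkt, the transketolase of the non-oxidative branch, which itself yields no NADPH, fell by 1.11 (SE 0.19, adjusted p = 0.0120). Me1, the cytosolic malic enzyme, fell by 1.02 (SE 0.23, adjusted p = 0.0281). Idh1, the cytosolic isocitrate dehydrogenase, rose by 1.16 (SE 0.20, adjusted p = 0.0115). The leading probe sets of Pgd and Tkt end in _x_at and that of Idh1 in _s_at, which mark possible cross-hybridization. Without probe sets with these endings, Pgd differed by -1.08 (adjusted p = 0.00401) and Tkt by -1.10 (adjusted p = 0.0156). Idh1 then had no probe set left. Tkt missed the threshold when wild type E was left out (0.0545). Me1 missed it when wild type E (0.103), F (0.0791) or I (0.0721) was left out, or when probe sets ending in _x_at, _s_at or _a_at were (0.0733).

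Of 18 measured glutathione S-transferases beyond the members, 4 rose, 1 fell and 13 did not pass. Gstt3, of the theta class, rose by 1.61 (SE 0.17, adjusted p = 0.00324), Gstz1, of the zeta class, by 1.21 (SE 0.14, adjusted p = 0.00393) and Gstm4, of the mu class, by 0.73 (SE 0.12, adjusted p = 0.0110). The fourth rise, outside the naming rule, was that of Gstt1 by 1.31 (SE 0.35, adjusted p = 0.0446). Gsto1, of the omega class, fell by 1.35 (SE 0.28, adjusted p = 0.0218). Leaving out any clone but knockout H ended the calls of Gsto1 (0.0645 to 0.0813) and of Gstt1 (0.0938 to 0.120), and so did subtracting array medians for Gstt1 (0.0513).

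Of 17 measured genes for the synthesis, recycling, use and breakdown of glutathione, 2 rose and 1 fell. Ggt7, of the gamma-glutamyltransferase family, rose by 1.59 (SE 0.13, adjusted p = 0.00172). Glrx3, a glutaredoxin read at low intensities, rose by 0.46 (SE 0.12, adjusted p = 0.0456). Its call ended when any clone but knockout J was left out (0.0718 to 0.139), with array medians subtracted (0.0810) or with quantile normalization again (0.0714). Gpx4, the peroxidase that reduces lipid hydroperoxides, fell by 0.57 (SE 0.11, adjusted p = 0.0157), but missed the threshold when knockout J (0.0599), or wild type E (0.0598) or I (0.0518), was left out. Gsr, the glutathione reductase, lay lower in all knockout clones without passing (-0.68, SE 0.19, adjusted p = 0.0541). The glutaredoxins Glrx and Glrx2 lay higher in all of them without passing (0.50 and 0.39, SE 0.14 and 0.12, adjusted p = 0.0584 and 0.0700). Gss, the second enzyme of glutathione synthesis, differed by -0.06 (SE 0.24, adjusted p = 0.894). Gsr, Glrx, Glrx2 and Gss were named after their values were seen. In this list the ranges of the genotypes lay apart upward in 4 genes and downward in 3, against 20.7% and 18.2% of all genes.

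Haem breakdown and other known NRF2 targets contained the largest rises. Of 11 measured genes 2 rose and 2 fell. Most of the list lay lower, with 8 genes below 0 and a median difference of -0.34. The ranges of the genotypes lay apart downward in 7 of its genes and upward in 2. Over all genes this held for 18.2% downward and 20.7% upward. Ephx1, the microsomal epoxide hydrolase, read 10.45, 9.64 and 10.75 in the E, H and J knockout clones and 8.27, 8.41 and 7.17 in the E, F and I wild type clones, and rose by 2.33 (SE 0.41, adjusted p = 0.0130). Blvrb, a biliverdin reductase, read 9.26, 8.56 and 9.46 against 7.43, 7.51 and 6.90, and rose by 1.82 (SE 0.28, adjusted p = 0.00836). As with Gsta4, clone H was the lowest knockout clone and wild type clone I the lowest of all for both. Abcc4, an exporter of organic anions, fell by 1.26 (SE 0.25, adjusted p = 0.0179). It missed the threshold when knockout E (0.0596) or J (0.0647), or wild type E (0.0715) or F (0.0611), was left out. Osgin1 fell by 0.45 (SE 0.11, adjusted p = 0.0361), which no fit with a clone left out kept (0.0568 to 0.105), nor did the trended robust prior (0.0620). Among 4 superoxide dismutases and catalase, Sod1, the cytosolic dismutase, fell by 0.49 (SE 0.09, adjusted p = 0.0157). It missed the threshold when knockout E (0.0516) or J (0.0511), or wild type E (0.0591) or F (0.0563), was left out, and the mean of its probe sets gave -0.13 (adjusted p = 0.359).

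**Figure D5:**
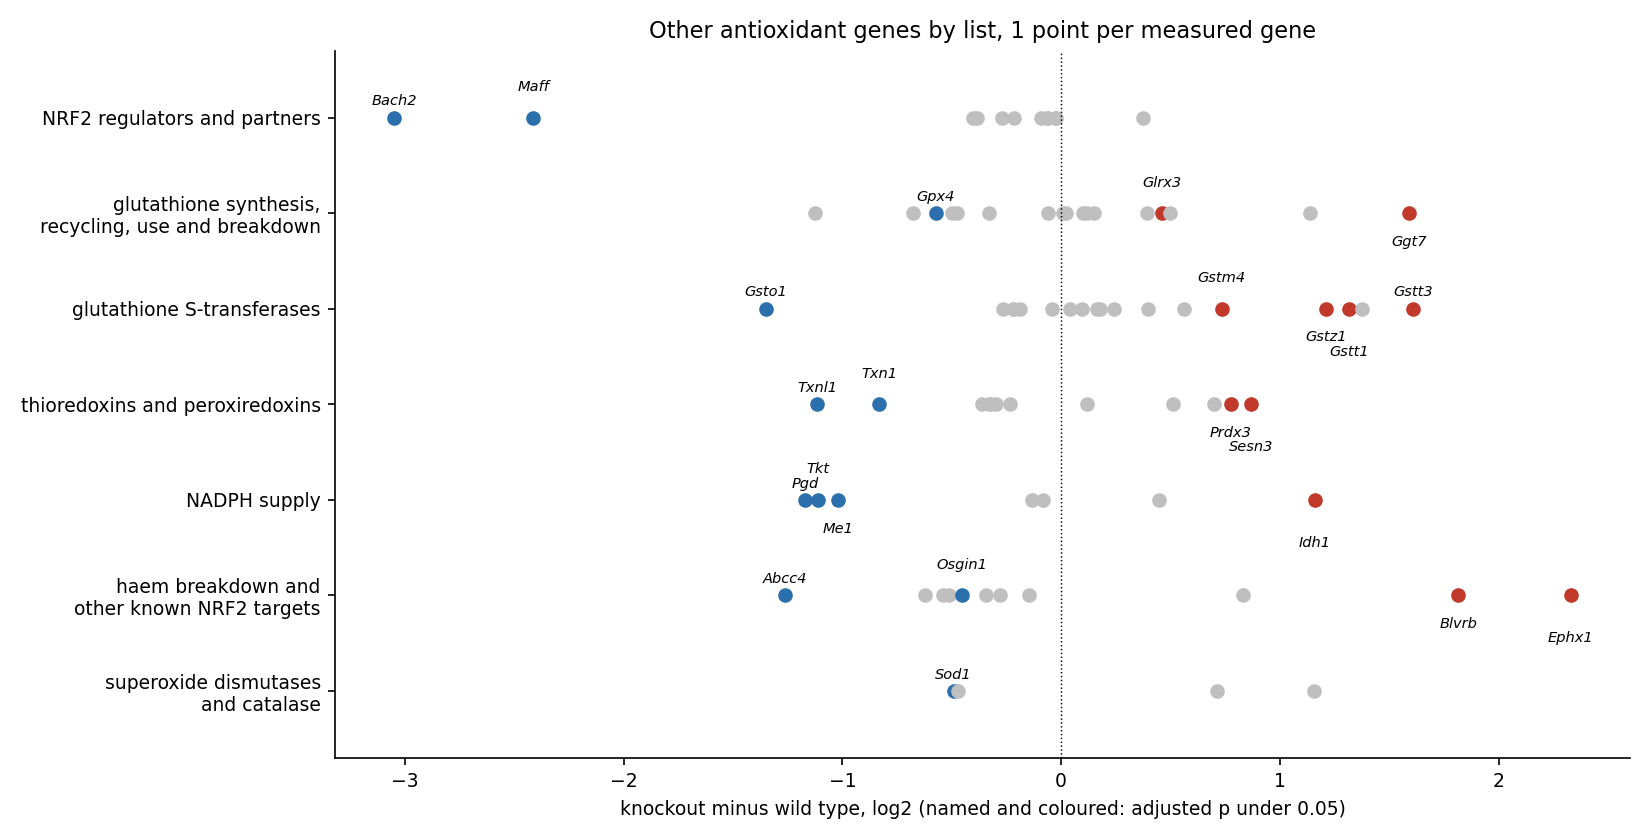
Difference between genotypes on the log2 scale for the 81 measured genes of 7 lists (1 point per gene; red rose, blue fell, grey did not pass). Bach2 and Maff lie farthest to the left at -3.05 and -2.41, and Ephx1 and Blvrb farthest to the right at 2.33 and 1.82.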

How the data were processed

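The deposited values are log2 intensities of 45101 probe sets on 6 one-colour Affymetrix arrays, which the authors made with RMA, per the submitters' processing notes; RMA subtracts background, equalises the arrays by quantiles and combines the probes of a set. Its version is not stated in the sources used here. Groups and clone letters came from the sample titles. Left out were 64 control probe sets, 932 with several symbols and 9160 without one in GEO's platform annotation. The other 34945 gave 18193 genes, each read by the brightest of its probe sets. The genotypes were tested in R 4.3.3 by limma 3.58.1 (lmFit with genotype as the only term, then eBayes; 4 residual degrees of freedom), adjusted by Benjamini-Hochberg over all genes at 0.05. No gene was left out for a low level. Arrays have no read depth, and 3 clones per genotype limit the precision (median SE 0.141 over all genes). The fit was run on simulated data and the motif search on a made-up window. The check of the motif search required only that the AP-1 element be found, so it did not test the antioxidant core.

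The members and the 7 lists were chosen with earlier results of these data known. Named from each list were the genes that passed, up to 4 by the smallest p; genes named otherwise are said to be so. Alternatives were subtracted array medians, a second quantile normalization, a trended robust prior, only genes at or above the median level (5.92), the mean of probe sets, every probe set, no probe sets ending in _x_at, _s_at or _a_at, array weights and each clone left out. The endings _x_at and _s_at mark possible cross-hybridization between genes, and _a_at marks probes shared by transcripts of 1 gene, so leaving out only _x_at and _s_at was added after seeing the data. Promoter windows were read from RefSeq, and figures drawn with matplotlib 3.10.9 in Python 3.11.15.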

Additional observations from a re-analysis of the deposited data

How the results depend on the processing

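The 10 members gave 148 values under 15 alternatives, of which 120 kept their direction and side of the threshold, 19 lost a call, 6 gained one and 3 changed sign without passing in either fit. The sign changes were Keap1 with probe sets averaged (0.015) and Gstm1 with array weights (0.25) or without knockout clone H; over the fits that left out 1 clone, Gstm1 ran from -0.46 to 0.38. Gclm passed under all 15 alternatives and Txnrd1 under all 14 that gave it a value. Of the members 5 passed in the comparison as reported, 2 to 6 with 1 clone left out, 7 with array weights, and 3 of 9 without probe sets ending in _x_at, _s_at or _a_at, where Txnrd1 had none left and Gsta4 missed the threshold at the same difference (adjusted p = 0.0514). With _a_at probe sets kept, an alternative chosen after seeing the data, 5 of 10 passed. Of the 81 other pathway genes 23 passed as reported, 36 with array weights and 14 to 31 with 1 clone left out. Over all genes 3464 passed, 1661 to 4750 with 1 clone left out, and 5876 of 34945 when every probe set was tested, which is a larger set of features. With 1 clone left out a group holds fewer clones; other causes of these shifts were not tested. No paired analysis was possible because the clone letters of the genotypes share only E. Low intensities limit the values of Slc7a11 and Glrx3. Bach2 (3.88 to 5.33) and Abcc4 (4.07 to 4.52) also read below the median level of 5.92 in all knockout clones, so the sizes of their falls are not exact either.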
